A study of Mus musculus with 4 samples.

Results

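The cells described here are noncycling muscle stem cells (satellite cells) from the skeletal muscle of a mouse model of Duchenne muscular dystrophy (DMD), captured with a satellite cell isolation kit and read as single cells with 10x Genomics 3' chemistry v3.1. They were chosen by their counts of unique molecular identifiers (UMIs, 1 per captured RNA molecule). Barcodes under 200 genes or above 20% mitochondrial UMIs were dropped. A barcode was a member with at least 2 UMIs summed over Pax7, Myf5, Calcr and Chodl, a sum greater than its Myog UMIs, at most 2 UMIs of Mki67, Top2a and Cenpf together, and under 10% of its UMIs from Acta1 and Ckm. This gave 446 members of 3318 kept kit barcodes, and of 5674 kept barcodes in the 4 libraries of the series.

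The study holds 4 libraries of the same DMD model, one for each pairing of a treatment (vehicle, or LNP-CRISPR, that is lipid nanoparticles carrying CRISPR components) with a preparation (satellite cell isolation kit, or bulk, as the labels call it). The labels give no strain, DMD allele, age, dose, time after treatment or number of pooled animals for any group. The title of the series concerns where LNP-CRISPR goes among the cells of muscle. With 1 library per group there is no test between groups: every interval below is a 95% counting interval, and a difference describes these 2 libraries, between which treatment, animals and library cannot be told apart.

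Satellite cells lie between the muscle fibre and its basal lamina and are the source of new fibre nuclei after injury. Pax7 is the transcription factor that maintains them, Myf5 marks their myogenic fate, and Calcr, the calcitonin receptor, together with Notch signalling through Notch3, Heyl and Hey1 holds them out of the cell cycle. On activation they express Myod1, raise cyclin D1 and ribosome production, and then either divide, return to rest or differentiate through Myog. Inflammatory signals through NF-kB, a family of transcription factors held in the cytoplasm by Nfkbia, reach the same cells in injured muscle.

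The vehicle kit library gave 227 members of 1411 kept barcodes, 16.1% (exact binomial interval 14.2 to 18.1). The LNP-CRISPR kit library gave 219 of 1907, 11.5% (10.1 to 13.0). The median member had 13470 UMIs and 3269 genes in the vehicle library and 14987 UMIs and 3450 genes in the LNP-CRISPR library, so the depths were close. Over the whole series 1305 to 2207 barcodes were deposited per library, and libraries shared 0 to 3 barcodes in any pair. A single vehicle kit member carried a barcode that also occurs in another library.

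The label was checked against markers, and not all members bore it out. Chodl, a C-type lectin-like membrane protein, was also carried by barcodes with tenocyte (tendon cell) markers. In 22 vehicle and 26 LNP-CRISPR members, UMIs of Tnmd, Scx, Fmod, Thbs4, Mkx and Kera outnumbered those of Pax7, Myf5 and Calcr, with a median of 411 and 449 tenocyte-marker UMIs per barcode, and 86.4% and 96.2% of these barcodes had at least 5. Thbs4 stood at 13684 and 15369 CPM (UMIs per 1000000 UMIs of nuclear-encoded mouse genes) in these barcodes against 2.02 and 7.35 in the other members, and Pax7 at 4.73 and 3.65. These 48 tenocyte-marker barcodes are members by the rule but not muscle stem cells by their markers. The other 205 vehicle and 193 LNP-CRISPR cells, 398 in all and 14.5% and 10.1% of kept barcodes, are called the Pax7/Myf5 cells. Results are given for them, and for all 446 members wherever the 2 differ in direction or call. Setting these barcodes apart was decided after the data were seen.

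Immune and endothelial markers were near 0 in the Pax7/Myf5 cells, and mural, glial and fibre markers were not. The 13 immune markers summed to 2.02 CPM in the vehicle and 7.35 CPM in the LNP-CRISPR library, with Ptprc, Adgre1 and Csf1r at 0 in both. The 6 endothelial markers summed to 6.41 and 1.53 CPM. The 8 fibro-adipogenic markers summed to 514 and 345 CPM, against 22474 and 25884 in the tenocyte-marker barcodes. Gsn alone was at 371 and 253 CPM in the Pax7/Myf5 cells and was seen in 91.7% and 92.2% of them. Mural markers summed to 857 and 906 CPM, with more mural than own-marker UMIs in 42 and 60 cells. Most of this sum was Acta2, at 479 and 535 CPM, and Tagln, at 306 and 314. Myh11 was at 44.5 and 51.7 CPM, Rgs5 at 19.2 and 1.53 and Pdgfrb at 2.70 and 1.53. The filter on UMIs of other cell types used below counts Gsn, Acta2 and Tagln too. Glial markers summed to 507 and 493 CPM, or 267 and 277 without the highest cell, and 2 and 3 cells held more of them than of their own markers. The 12 fibre markers summed to 1291 and 1051 CPM, and in glial barcodes, which should make none of them, to 2707 and 2435 CPM. Without the highest barcode of each group the sums were 1213.6 and 802 CPM in the Pax7/Myf5 cells and 2660.6 and 1506.7 in glial barcodes. No doublet caller was run.

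At the edge of the rule, 16 vehicle and 9 LNP-CRISPR members had exactly 2 marker UMIs, with medians of 5112 and 4267 UMIs in all. Just outside it, 36 and 58 barcodes had 1 marker UMI. Of these, 5.56% and 20.7% had a UMI of Spry1, against 25% and 22.2% of the members with exactly 2.

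The promoters shown here belong to NF-kB list genes that were called higher in LNP-CRISPR cells (below), and were picked because their windows hold an NF-kB site: Cxcl1 and Cxcl2, chemokines that recruit neutrophils, Csf1, the macrophage growth factor, and Nfkbia, the NF-kB inhibitor that NF-kB itself induces. Each is the 250 bases before the RefSeq start site in GRCm38.p6 (mm10), 5′ to 3′ on the gene's strand, and capitals mark matches, on either strand, to GGG and TTCC with any 3 bases between them, a form of the NF-kB site. A palindromic site matches on both strands, so its overlapping matches form 1 run of capitals. Windows were chr5:90890995-90891244 (plus strand) for Cxcl1, chr5:90903649-90903898 (plus strand) for Cxcl2, chr3:107760470-107760719 (minus strand) for Csf1 and chr12:55492648-55492897 (minus strand) for Nfkbia.
Cxcl1: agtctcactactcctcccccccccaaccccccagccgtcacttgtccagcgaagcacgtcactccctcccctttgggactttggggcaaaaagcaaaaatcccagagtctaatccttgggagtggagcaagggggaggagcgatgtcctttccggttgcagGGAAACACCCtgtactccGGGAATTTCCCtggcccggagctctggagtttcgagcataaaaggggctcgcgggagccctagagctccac
Cxcl2: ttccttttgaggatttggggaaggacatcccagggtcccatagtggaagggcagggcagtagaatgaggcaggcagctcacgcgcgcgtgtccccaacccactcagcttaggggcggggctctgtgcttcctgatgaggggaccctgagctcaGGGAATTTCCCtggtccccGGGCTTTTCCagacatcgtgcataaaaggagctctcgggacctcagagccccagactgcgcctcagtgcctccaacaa
Csf1: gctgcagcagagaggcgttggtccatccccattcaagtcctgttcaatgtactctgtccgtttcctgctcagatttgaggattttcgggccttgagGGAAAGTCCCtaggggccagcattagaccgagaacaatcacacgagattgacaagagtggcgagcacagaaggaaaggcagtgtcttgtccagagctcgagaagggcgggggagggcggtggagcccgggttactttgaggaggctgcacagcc
Nfkbia: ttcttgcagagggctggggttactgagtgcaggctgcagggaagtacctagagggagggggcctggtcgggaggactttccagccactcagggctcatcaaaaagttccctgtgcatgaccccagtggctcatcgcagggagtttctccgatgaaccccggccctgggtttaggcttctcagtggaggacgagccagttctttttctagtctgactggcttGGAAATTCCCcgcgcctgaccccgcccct
The Cxcl1 and Cxcl2 windows hold the same run GGGAATTTCCC, which starts 71 and 97 bases before the start site. A match was present in 1434 of 27025 genes with a RefSeq window of this length (5.31%), counting a gene with several windows once, and in 11 of the 20 genes of the NF-kB list that were measured in these cells and had a window. The list was made of NF-kB target and inflammation genes, so a higher share of matches follows from its choice and says nothing about these cells. A match is a description of the letters and does not show binding.

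At full depth most Pax7/Myf5 cells carried genes known from resting satellite cells, but most also carried Ccnd1 and Myc, and about 1 in 3 carried Myod1. Pax7 was seen in 86.8% of vehicle and 82.4% of LNP-CRISPR cells, Myf5 in 89.3% and 83.9%, Chodl in 84.4% and 80.3%, and Calcr in 40.5% and 28.5%. These 4 genes chose the cells, so their shares are a description. Spry1, an inhibitor of growth factor signalling known from resting satellite cells, played no part in the rule and was seen in 70.7% (64.0 to 76.9) and 68.9% (61.9 to 75.4). Notch3 was seen in 71.7% and 64.2%, Heyl in 54.1% and 43.5%, and Hey1 in 41.0% and 32.6%. Glial barcodes served as a rough guide to the level of free RNA. In them Spry1 was in 9.38% and 13.3%, Notch3 in 4.30% and 2.90%, and Heyl in 0.781% and 1.21%, at median depths of 6678 and 7941.5 UMIs. The guide is imperfect, as single LNP-CRISPR glial barcodes held up to 336 Myog and 1093 Acta1 UMIs.

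Myod1 was seen in 33.2% (26.8 to 40.1) of vehicle and 35.8% (29.0 to 43.0) of LNP-CRISPR cells, against 8.98% and 5.07% of glial barcodes. Ccnd1 was in 52.2% and 67.4% (glial 13.3% and 14.5%), and Myc in 73.2% and 69.4% (glial 22.7% and 23.9%). Egr1 was in 95.1% and 90.7% (glial 50% and 58.2%), and Fos in 86.8% and 83.4% (glial 82.8% and 90.1%). Mki67, which the rule limited, was in 10.7% and 8.29% (glial 5.08% and 6.04%). Myog, which starts differentiation and which the rule kept below the stem markers, was in 13.2% and 19.7%, against 8.20% and 10.9% of the shallower glial barcodes. Thinned to 2000 UMIs per barcode, which left out 5 vehicle and 2 LNP-CRISPR Pax7/Myf5 cells and 68 and 65 glial barcodes, Myod1 was in 9.50% and 12.6% and Myog in 2% and 5.76%. Ccnd1 was then in 21.5% (16.0 to 27.8) and 25.1% (19.1 to 31.9), and Myc in 28% and 26.2%. The thinned Myog shares lie near those of glial barcodes, 3.72% and 4.01%, and cannot be told apart from that level.

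**Figure D1:**
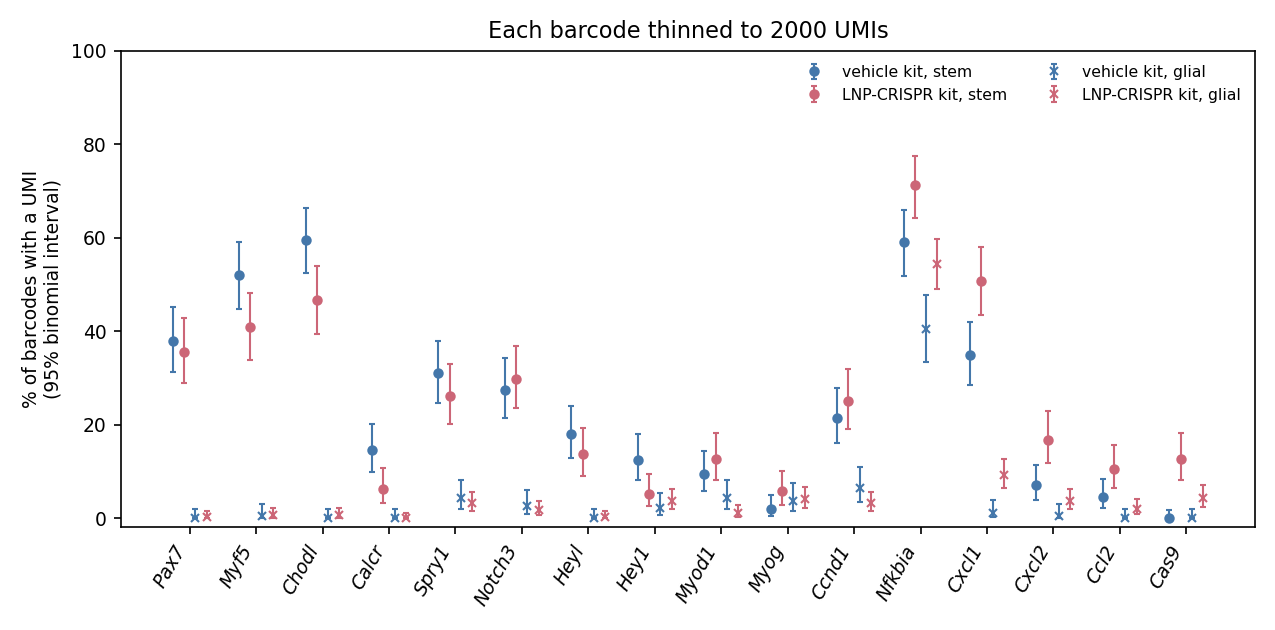
Share of barcodes with at least 1 UMI of each gene after thinning every barcode to 2000 UMIs, in Pax7/Myf5 cells (circles) and glial barcodes (crosses) of the vehicle (blue) and LNP-CRISPR (red) kit libraries, with exact binomial intervals. Spry1, which the rule did not use, stands at 31% and 26.2% against 4.26% and 3.15% of glial barcodes, while the positions of Pax7, Myf5, Chodl, Calcr and Myog were set in part by the rule.

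Against the other myogenic barcodes of the same libraries the Pax7/Myf5 cells stood apart in genes that the rule did not use as well as in its markers. Cycling barcodes met the same marker rule with more than 2 UMIs of Mki67, Top2a and Cenpf (142 vehicle, 224 LNP-CRISPR). Myog barcodes had at least 2 Myog UMIs and no fewer of them than stem marker UMIs, within the same cycling and fibre limits (82 and 98). Median depths were 12986 and 14135 UMIs in Pax7/Myf5 cells, 68457.5 and 59806.5 in cycling and 23050.5 and 26177.5 in Myog barcodes. The cycling limit is a count of UMIs, so a shallow cycling cell can fall among the noncycling ones. Whether depth sets part of the differences between these groups was not tested. Heyl was at 123 CPM in vehicle Pax7/Myf5 cells, 19.95 in cycling and 8.24 in Myog barcodes, and at 77.4, 16.7 and 3.35 in the LNP-CRISPR library. Notch3 was at 141, 24.97 and 5.49 CPM in the vehicle library and at 107, 22.98 and 12.8 in the LNP-CRISPR library. Myod1 ran the other way, at 78.6, 163 and 288 CPM in the vehicle library and at 110, 191 and 271 in the LNP-CRISPR library.

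Genes of growth were lower in the Pax7/Myf5 cells than in cycling barcodes. Ccnd1, cyclin D1, was at 194 CPM in vehicle Pax7/Myf5 cells and 489 in cycling barcodes, and at 344 and 529 in the LNP-CRISPR library. Ncl, nucleolin, needed for ribosome production, was at 1219.6 and 2590.3 CPM in the vehicle library and at 1894.2 and 3131.1 in the LNP-CRISPR library. In Myog barcodes the libraries were at 183 and 170 CPM for Ccnd1 and 1253 and 1192 for Ncl.

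**Figure D2:**
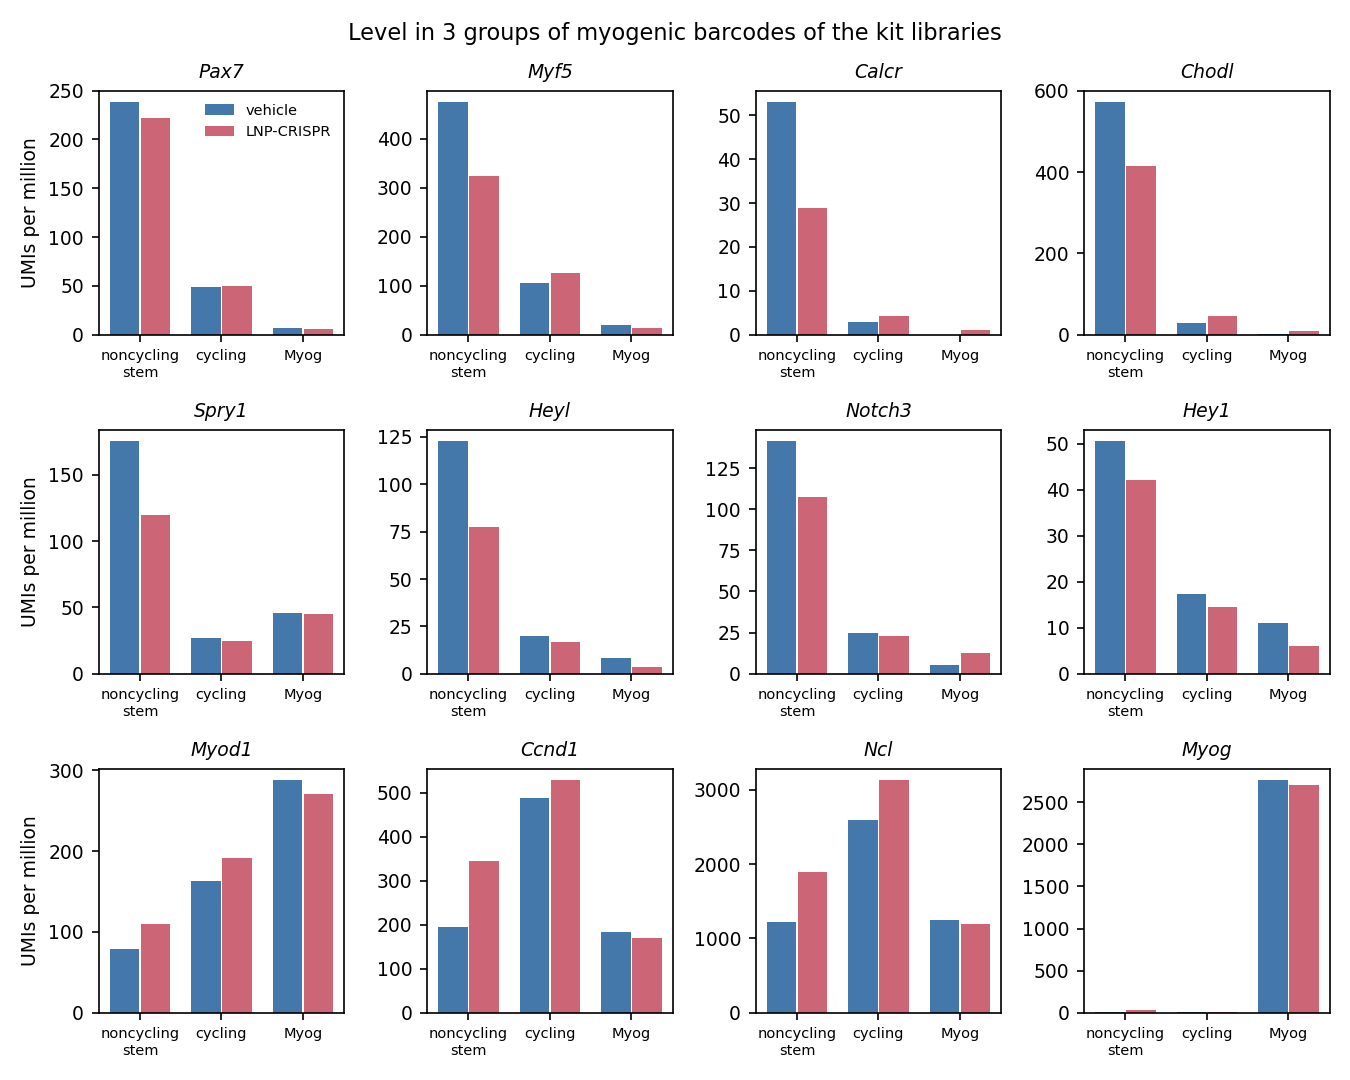
Level (CPM) of 12 genes in Pax7/Myf5 (noncycling stem), cycling and Myog barcodes of the vehicle (blue) and LNP-CRISPR (red) kit libraries, each bar 1 library. Stem and Notch genes are highest in the noncycling cells, Ccnd1 and Ncl in cycling barcodes, and in the noncycling cells Ccnd1 is 194 CPM in vehicle and 344 in LNP-CRISPR. The groups differ in median depth, and noncycling means at most 2 UMIs of Mki67, Top2a and Cenpf together.

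The genes most particular to the members by ratio to all other kit barcodes were drawn in large part, under the naming rule, from the tenocyte-marker barcodes. Of the 15, 10 were Thbs4, Kera, Col22a1, Col11a1, Ptx4, Scube2, Mfap2, Crispld1, Postn and Mmp2, and in the Pax7/Myf5 cells Kera and Col22a1 had 0 UMIs. The other 5 were Chodl, Chrdl2, a BMP antagonist, Hmcn2, a large matrix protein, Apoe, the lipoprotein component, and Gpx3, a secreted glutathione peroxidase. Hmcn2 was at 193 CPM in vehicle and 174 in LNP-CRISPR Pax7/Myf5 cells, against 5.95 and 7.17 in the other barcodes. Gpx3 was at 745 and 570 CPM against 19.7 and 24.6. Without the tenocyte-marker barcodes the same ranking added, among others, Nppc, the C-type natriuretic peptide, at 68.5 and 98.2 CPM against 3.81 and 2.64, and Erfe, erythroferrone, at 177 and 229 against 14.3 and 16.6. Because the cells were chosen by 4 of their own genes, these ratios describe them and are not tested.

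The Pax7/Myf5 cells varied among themselves in whether Pax7 and Myod1 were seen. In the vehicle library 120 cells had Pax7 without Myod1, 58 had both, 10 had Myod1 alone and 17 neither, and in the LNP-CRISPR library the counts were 106, 53, 16 and 18. Heyl was at 154 CPM (Poisson interval 136 to 174), 100 (81.5 to 122) and 25.3 (6.90 to 64.8) in the first 3 vehicle groups. In the LNP-CRISPR library it was at 128 (110 to 147), 39.3 (29.0 to 52.1) and 13.1 (3.56 to 33.5). Notch3 went in the same order, 174, 110 and 50.7 CPM in vehicle and 165, 53.2 and 29.4 in LNP-CRISPR cells. Ccnd1 went the opposite way between the first and second groups, 152 (134 to 172) to 246 (217 to 279) in vehicle and 197 (175 to 220) to 512 (473 to 554) in LNP-CRISPR cells. Median depths of these 2 groups were 13366.5 and 13678 UMIs in vehicle and 13037 and 17705 in LNP-CRISPR cells, and whether depth sets part of the LNP-CRISPR difference was not tested. The cells with neither gene had Heyl at 32.8 CPM (10.6 to 76.5) in vehicle and 24.4 (7.92 to 56.9) in LNP-CRISPR cells. Low Heyl was thus not confined to cells with Myod1. Their Notch3 was at 85.2 and 107 CPM and their Ccnd1 at 111 and 371, at median depths of 6786 and 10168.5 UMIs.

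Between libraries, summed counts of the members were compared gene by gene. A gene was called where its LNP-CRISPR to vehicle ratio was at least 1.5-fold either way with the counting interval on the same side of 1, over genes with at least 30 UMIs. Over all 446 members 387 of 9943 genes were called higher (3.89%) and 403 lower (4.05%). In the Pax7/Myf5 cells 368 of 9475 were called higher (3.88%) and 417 lower (4.4%). A single library pair gives these numbers no replicate check, and the interval covers counting error only. For lists a minimum of 20 UMIs was used, at which 3.82% of 10300 genes were called higher and 4.65% lower in the Pax7/Myf5 cells, and the median log2 ratio over all genes was -0.01. List genes outside the naming rule are named here after their values were seen.

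NF-kB target and acute inflammation genes were higher in the LNP-CRISPR Pax7/Myf5 cells. All 28 measured of 35 had a ratio above 1, as did 48.9% of all genes, and 17 were called higher and 0 lower, with a median log2 ratio of 0.76. Over all 446 members 28 of 28 had a ratio above 1 (49.9% of 10792 genes did), 16 were called higher (3.91% of genes) and the median was 0.68. Immune cells also make these chemokines. Their markers summed to 2.02 CPM in the vehicle and 7.35 CPM in the LNP-CRISPR Pax7/Myf5 cells, as given above. How much RNA of immune or other cells adds to this list was not tested. The 11 not called included Vcam1, the adhesion molecule, at 584 and 739 CPM.

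The chemokines led this list. Ccl2, which draws monocytes and lies at chr11:82035571-82037453 in mm10, was at 18.2 CPM (13.7 to 23.8) in vehicle and 189 (175 to 205) in LNP-CRISPR Pax7/Myf5 cells, a ratio of 10.4 (7.87 to 14). It was seen in 9.27% and 29.5% of cells, and the highest single cell held 12 and 119 UMIs. The gene was thus higher both in the share of cells and in the sum. Ccl7, its neighbour on the same chromosome and also a monocyte chemokine, was at 6.07 and 66.4 CPM, a ratio of 10.9 (6.76 to 18.8). Cxcl2, at 78.9 and 474 CPM, had a ratio of 6.001 (5.23 to 6.92), and Cxcl1, at 567 and 1309, of 2.31 (2.18 to 2.44). Cxcl3, of the same neutrophil-recruiting group, was at 18.9 and 124 CPM, but a single cell gave 48 of the 56 UMIs in the vehicle library. Its ratio was 6.56, and 28.9 (14.5 to 67.7) with the highest cells left out. Cxcl1 was in 60% and 77.7% of cells. In glial barcodes it was in 5.08% and 22.5%, so the higher share was not confined to the stem cells. How much of the glial share is free RNA was not tested.

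Regulators of the pathway were higher by less. Nfkbia was at 665 CPM (636 to 695) in vehicle and 1077 (1041 to 1113) in LNP-CRISPR cells, a ratio of 1.62 (1.53 to 1.71), and Nfkb1, a subunit precursor, at 195 and 346. Tnfaip3, the A20 feedback inhibitor, was at 62.4 and 111 CPM, and Tnfaip2, a TNF-induced gene, at 54.3 and 129. Csf1 was at 38.5 and 83.2 CPM, a ratio of 2.16 (1.73 to 2.72). Icam1, an adhesion molecule, was at 11.5 and 21.1, and Il6, a cytokine, at 1.35 and 9.79 CPM, with 25 of its 32 LNP-CRISPR UMIs in 1 cell. Without the highest cell of each library its ratio was 6.35 (0.82 to 286.2), and the call was lost.

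Genes of cell cycle entry and ribosome production were also higher. Of 25 measured, 22 had a ratio above 1 and 11 were called higher and 0 lower, with a median log2 ratio of 0.53, and 9 were called without the highest cell of each gene. Over all members 11 of 26 were called higher, with a median of 0.54. Ccnd1 had a ratio of 1.77 (1.60 to 1.97), which was 1.11 and no longer a call when members with more UMIs of other cell types than of the 4 markers were left out. Ncl had a ratio of 1.55 (1.49 to 1.62), which over all members was 1.495 and short of the call. Nolc1, a nucleolar phosphoprotein, was at 132 and 248 CPM, Nop56, a box C/D snoRNP core protein, at 137 and 221, and Odc1, the first enzyme of polyamine synthesis, at 228 and 378. Myc, a transcriptional driver of this programme, went the other way at 181 and 143 CPM, a ratio of 0.79 (0.70 to 0.90). The cells had been limited to at most 2 UMIs of Mki67, Top2a and Cenpf.

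Most satellite cell identity and quiescence genes had ratios below 1. Of 31 measured, 26 had a ratio below 1, 5 were called lower and 0 higher, and the median log2 ratio was -0.32. Without the 4 rule markers the counts were 4 of 27 lower and the median was -0.31. In the all-member comparison 6 of 32 were called lower, beside 4.29% of genes, with a median of -0.30. That median was -0.0504 when members with more UMIs of other cell types than of the 4 markers were left out, a filter that itself keeps cells rich in those markers.

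Calcr, Myf5 and Pax7 helped to choose the cells, so their values between the libraries are a description only. Calcr was at 52.97 and 28.8 CPM, a ratio of 0.54 (0.42 to 0.71). Myf5 was at 475 CPM (450.5 to 500.5) and 323 (304 to 343), a ratio of 0.68 (0.63 to 0.74), and 0.66 (0.61 to 0.72) over all members. Pax7 was at 238 and 222 CPM, a ratio of 0.93 (0.84 to 1.04), and its interval includes 1. Of genes outside the rule, Fgfr4, a growth factor receptor of satellite cells, was at 160 and 105 CPM, Cxcr4, the receptor of Cxcl12, at 73.2 and 42.8, and Edn3, an endothelin, at 69.5 and 37.6. Spry1 was at 175 and 120 CPM, a ratio of 0.68 (0.60 to 0.78), just short of the call. Sdc4, a syndecan of satellite cells, lay on the other side at 1086 and 1602 CPM, a ratio of 1.47 (1.41 to 1.54).

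Notch receptors and targets had ratios below 1. Heyl had a ratio of 0.63 (0.54 to 0.74) and was called lower, but was at 0.77 and short of the call when members with more UMIs of other cell types than of the 4 markers were left out. Also called lower was Notch2, at 69.2 and 44.99 CPM, and Rfng, a Notch-modifying glycosyltransferase. Notch3 had a ratio of 0.76 (0.66 to 0.88), Hes1 of 0.80 (0.71 to 0.91) and Hey1 of 0.83 (0.66 to 1.06). The transcriptional partner Rbpj was at 149 and 186 CPM, a ratio of 1.25 (1.10 to 1.41). Of the ligands, Jag1 had a ratio of 0.83 (0.60 to 1.15) and Dll1 of 1.25 (0.76 to 2.09), and both intervals include 1. Of 17 measured genes 3 were called lower and 0 higher in the Pax7/Myf5 cells, and 2 and 0 over all members, with medians of -0.26 and -0.27.

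Immediate early genes, transcription factors induced within minutes of stimulation and also by tissue dissociation, were lower as a group with exceptions. Of 25 measured, 10 were called lower and 2 higher, with a median log2 ratio of -0.38. Over all members 6 were called lower and 1 higher, with a median of -0.31. Fosb was at 1065 CPM in vehicle and 563 in LNP-CRISPR cells, a ratio of 0.53 (0.50 to 0.56), Fos at 1385 and 823, and Jund at 1561 and 913. Jun had a ratio of 0.65 (0.63 to 0.68) and Egr1 of 0.66 (0.64 to 0.69), and neither was called over all members, where their ratios were 0.72 and 0.70. Klf2 was at 68.1 and 28.8 CPM. The exceptions were Fosl1, at 80.0 and 145 CPM, and Ier3, at 121 and 199. In the heat shock list 3 of 17 genes were called lower, Hspa1a at 523 and 282 CPM, Dnajb1 at 142 and 70.4, and Hspa1b, whose reads cannot be cleanly told from those of its near-identical copy Hspa1a. The part of cell isolation in these differences was not tested.

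**Figure D3:**
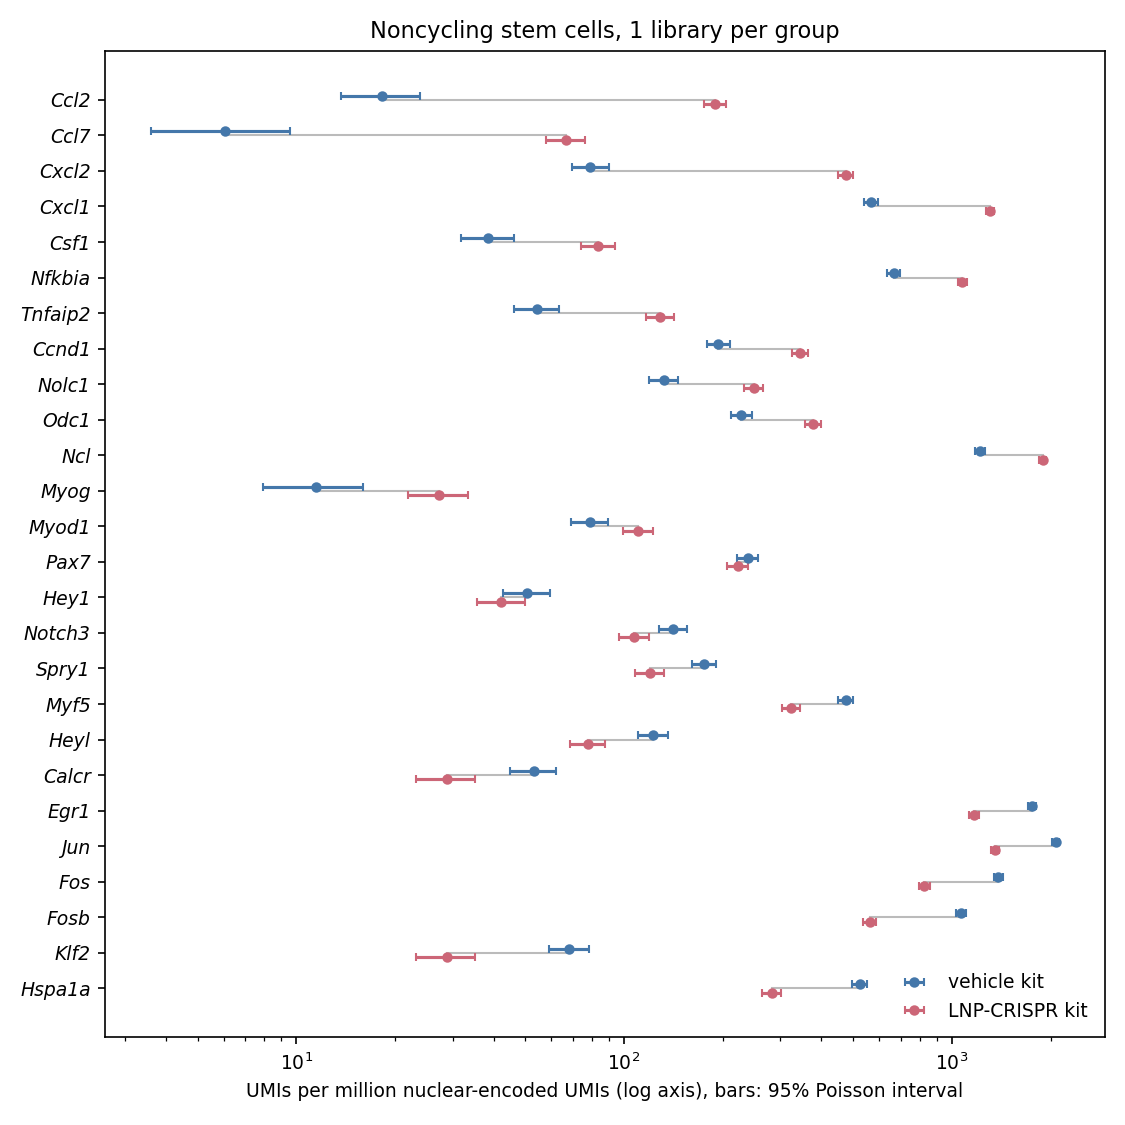
Level (CPM, log axis) of 26 genes in the Pax7/Myf5 cells of the vehicle (blue) and LNP-CRISPR (red) kit libraries, with Poisson counting intervals. Ccl2 and Ccl7 are about 10-fold apart, while the bars of Pax7 and Hey1 overlap between libraries.

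The genes with the largest single ratios lay partly outside the lists. Among those higher were Rnd1, a small GTPase, at 11.5 and 41.3 CPM, Ereg, the EGF family ligand epiregulin, at 12.5 and 33.1, and Esm1, a secreted proteoglycan, at 97.5 and 250. Esm1 was in 15.6% and 26.9% of cells. Among those lower were Slc40a1, the iron exporter ferroportin, at 16.5 and 4.90 CPM, and Rhoh, a GTPase, at 24.6 and 9.49. Spp1, osteopontin, was at 141 and 56.01 CPM, but 1 vehicle cell held 141 of its 419 UMIs. Casq1, Mrln and Ckm, genes of mature fibres, were also lower, at 7.42 and 2.14, 78.6 and 39.5, and 111 and 71.3 CPM, beside the lower sum of fibre markers given above.

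Several high ratios of the all-member comparison came with the tenocyte-marker barcodes. Lox, a collagen crosslinking enzyme, had a ratio of 3.24 (2.73 to 3.86) over all members and 0.66 (0.41 to 1.06) in the Pax7/Myf5 cells. Spon2 went from 4.41 to 1.36 (0.32 to 6.56), and Kera had a ratio of 2.64 over all members and no UMI in the Pax7/Myf5 cells. Col1a1, the collagen I chain, had a ratio of 1.21 (1.18 to 1.24) over all members and 0.61 (0.52 to 0.71) in the Pax7/Myf5 cells. The matrix and niche list had a median of 0.15 over all members and -0.13 without those barcodes, where 3 of 33 (Col1a1, Adamts5 and Col6a3, the last only with its highest cell) were called lower and 1, the protease inhibitor Timp1 at 289 and 486 CPM, higher.

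The other lists moved little or in few genes. Dmd, the gene mutated in DMD, was at 104 CPM in vehicle and 81.1 in LNP-CRISPR cells, a ratio of 0.78 (0.66 to 0.92) and short of the call, and Utrn, its paralogue, at 170 and 157, a ratio of 0.93 (0.82 to 1.05). These 3' counts do not show which exons a transcript holds. The dystrophin complex list had 1 of 21 called higher, Dtnb, a dystrobrevin, and 2 lower, among them Sgca, the alpha sarcoglycan, at 25.3 and 14.4 CPM. Of the p53 targets 0 of 25 were called higher and 2 lower, Btg2 and Trp53inp1. Cdkn1a, the cell cycle inhibitor p21, was at 169 and 164 CPM with a ratio of 0.97 (0.86 to 1.10) and Mdm2, the p53 ubiquitin ligase, at 54.7 and 51.4. Interferon response genes had 2 of 24 called higher, Gbp2 and Gbp3, and 1 lower, Samd9l, with a median of 0.19. Gbp2, an interferon-induced GTPase, was at 7.08 and 28.8 CPM with 53 of its 94 LNP-CRISPR UMIs in 1 cell, and its ratio of 4.06 was 2.19 without the highest cell. Gbp3 lost its call that way. MHC class I presentation had 0 of 12 called in either direction, with B2m, its light chain, at 177 and 215 CPM.

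In the differentiation list 5 of 20 genes were called higher, all at low levels. Myog was at 11.5 and 27.2 CPM, a ratio of 2.37 (1.58 to 3.64), and 1 LNP-CRISPR cell held 38 of its 89 UMIs. Without the highest cell of each library it was 1.60 (0.99 to 2.61), and the call was lost, as it was for Mymx and Actc1. The list then had 2 of 20 genes called higher and 2 lower. Over all members its ratio of 2.38 turned to 0.79 when cells were thinned to equal depth. Tnnt2, an embryonic troponin, was at 9.45 and 20.2 CPM, and Mymx, a fusion peptide gene, at 5.06 and 11.02. The others called were Actc1, cardiac actin, and Cav3, caveolin-3. Myod1 had a ratio of 1.40 (1.19 to 1.66) in the Pax7/Myf5 cells and 1.10 (0.95 to 1.29) over all members. The activation list had 1 of 22 called higher, Ccnd1, and 2 lower, Numb and Rcan2. In cholesterol synthesis 1 of 21 was called higher and 1 lower, the latter Pmvk. TGF-beta and BMP signalling had 1 of 28 called lower, Tgfb3, lipoprotein and particle uptake 1 of 14, Vldlr, and circadian output 2 of 16, Per2 and Arntl. Over all 446 members the counts higher and lower were 3 and 1 for differentiation, 3 and 1 for activation, 1 and 2 for p53 targets, 3 and 0 for interferon, 2 and 1 for cholesterol synthesis, 1 and 1 for both uptake and TGF-beta and BMP signalling, and 0 and 1 for circadian output.

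**Figure D4:**
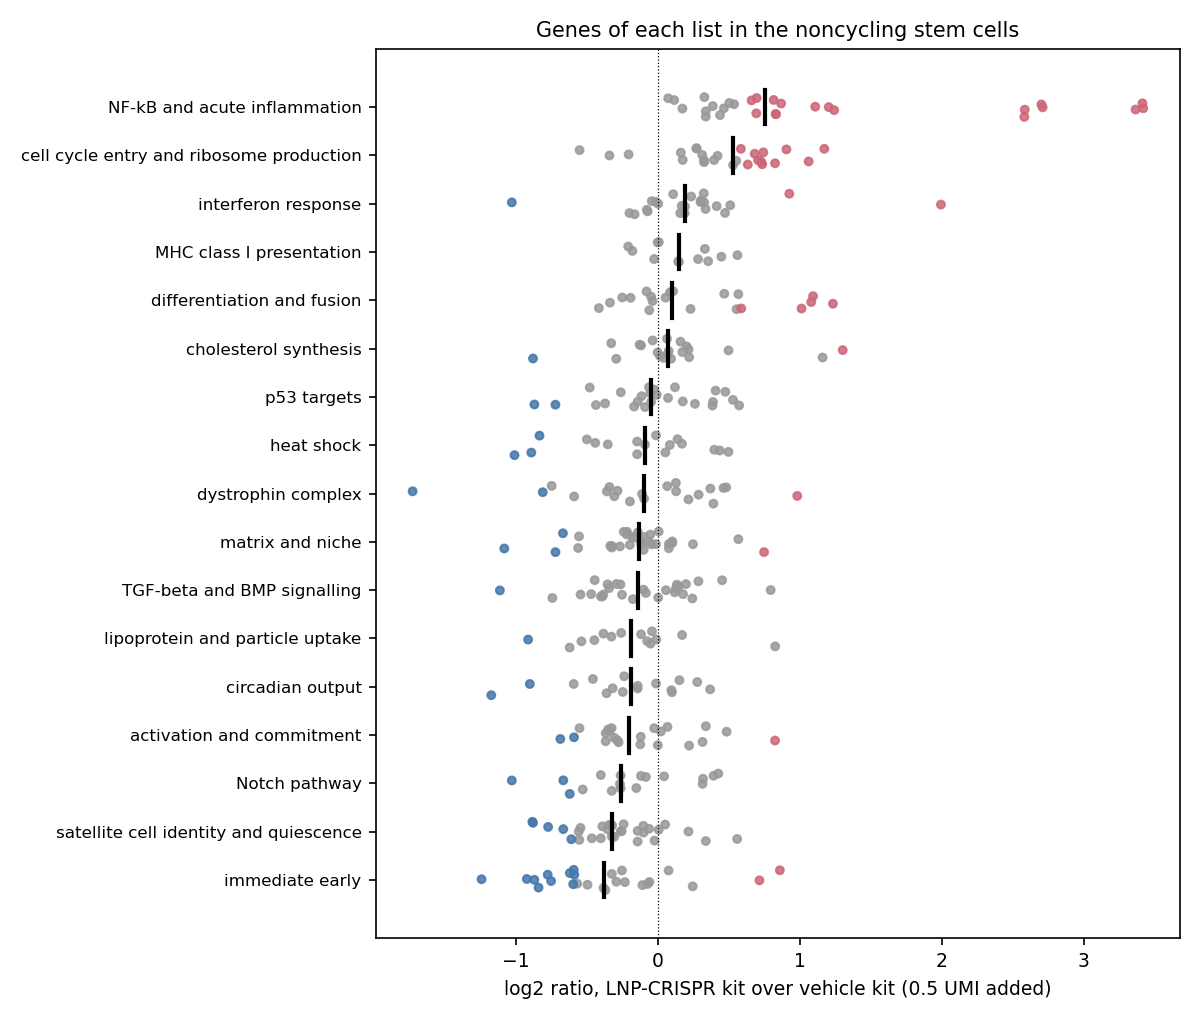
Log2 ratio of each measured gene of 17 lists in the Pax7/Myf5 cells, LNP-CRISPR kit over vehicle kit, 1 point per gene, with 0.5 UMI added (red called higher, blue called lower, grey neither) and the list median as a black line. Every NF-kB point lies right of 0, and the immediate early and identity medians lie left of it.

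Set beside the other kit barcodes, the list medians were shared in part. The NF-kB median was 0.76 in the Pax7/Myf5 cells, 0.76 in cycling, 0.42 in Myog and 0.74 in glial barcodes. By value it was thus about as large in cycling and glial barcodes. In the same glial comparison the differentiation list had a median of 3.48, with 18 of 23 genes called higher. Single LNP-CRISPR glial barcodes held up to 289 Nfkbia and 130 Cxcl1 UMIs. How far such barcodes or free RNA set the glial NF-kB median was not tested. The cell cycle entry and ribosome median was 0.53, 0.15, -0.14 and 0.20 in the same order. The identity and quiescence median was -0.32, 0.17, -0.26 and 0.03, and the immediate early median -0.38, 0.11, -0.21 and 0.08. All 4 groups come from the same 2 libraries, and no difference between them was tested.

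**Figure D5:**
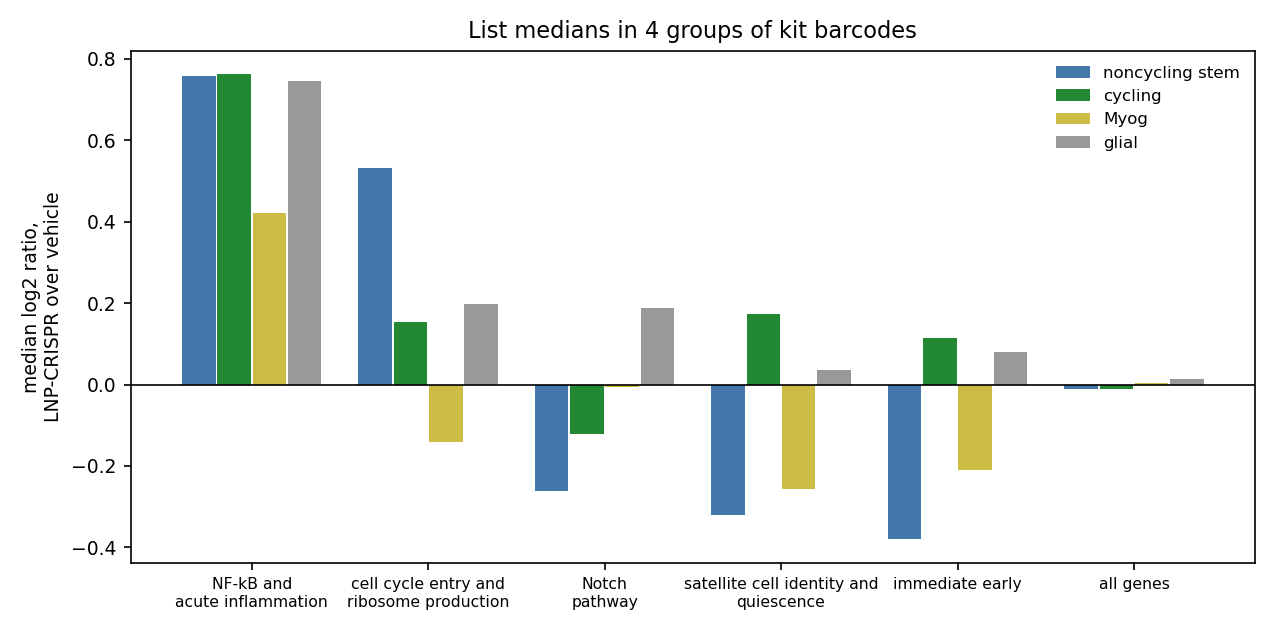
Median log2 ratio, LNP-CRISPR kit over vehicle kit, of 5 gene lists and of all genes in Pax7/Myf5 (noncycling stem), cycling, Myog and glial barcodes, 1 value per bar with no error. The NF-kB bars are all above 0, whereas the ribosome bar is tallest and the immediate early bar lowest in the noncycling stem cells.

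Cas9 transcripts, which the authors counted as an added feature, had 0 UMIs in the vehicle members, where 3 counts would be 0.886 CPM, and 0 of 227 cells allows a share of up to 1.61%. The LNP-CRISPR members held 816 Cas9 UMIs, 214 CPM (199 to 229), but 544 of them were in the 26 tenocyte-marker barcodes. The 193 Pax7/Myf5 cells held 272, 83.2 CPM (73.6 to 93.7), with a UMI in 31.6% of cells (25.1 to 38.7) and at least 4 in 8.29% (4.81 to 13.1). Glial barcodes of the same library were at 21.7 CPM, with a UMI in 12.3% and at least 4 in 0.725%. Cycling barcodes were at 383 CPM, with a UMI in 43.3% and at least 4 in 20.5% at a median of 59806.5 UMIs per barcode. Myog barcodes were at 159 CPM, with 31.6% and 11.2% at a median of 26177.5. The Pax7/Myf5 cells, at a median of 14135, thus lay above the glial barcodes and below the other myogenic ones by sum. A few cells held most of their Cas9 UMIs: the 10 highest had 64.0% of the UMIs. Among the 132 LNP-CRISPR cells with 0 Cas9 UMIs, the NF-kB median against all vehicle cells was 0.76 and the identity median -0.18. Among the 16 with at least 4 these medians were 0.27 and -0.94, with a median depth of 17468 UMIs, and these cells were not compared by a test.

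By the same rule the bulk libraries gave 85 vehicle and 79 LNP-CRISPR members, of which 66 and 67 were tenocyte-marker barcodes, leaving 19 and 12 Pax7/Myf5 cells. In them the NF-kB median was 0.86, with 16 of 19 measured genes above 1. Ccl2 had a ratio of 2.14 (1.19 to 3.80) and Nfkbia of 2.58 (2.09 to 3.19). Cxcl1, at 1.29 (1.02 to 1.62), Cxcl2, at 1.59 (0.80 to 3.08), and Csf1, at 1.29 (0.54 to 2.89), were closer to 1, and Cxcl10 had 11 vehicle and 0 LNP-CRISPR UMIs. The immediate early median was 1.08 and the cell cycle entry and ribosome median -0.33, the opposite of the kit libraries. Also opposite in sign to the kit were the identity and quiescence median, 0.13, and the Notch median, 0.26. Of 27 identity genes measured in bulk 6 were called higher and 3 lower, and of 8 Notch genes 5 had a ratio above 1. The counts of bulk cells are small, and the difference between preparations was not tested.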

How the data were processed

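The authors deposited raw UMI counts per gene and barcode (10x 3' v3.1) for 4 libraries, each of 32286 features including Cas9. The matrix headers name cellranger 5.0.1 and the submitters' processing notes Cell Ranger 7.0.1 with mm10, and which of the versions made the matrices is not settled. Doublet removal is not given in the sources used here, and no doublet caller was run. Library totals were 25921795 to 40666916 UMIs. The members and the gene lists were chosen with earlier results of these data known. Member counts were summed per library and divided by nuclear-encoded mouse UMIs, leaving out mitochondrial genes and Cas9. Ratios have exact conditional binomial intervals, levels Poisson and shares Clopper-Pearson intervals at 95%, covering counting error only. List log2 ratios had 0.5 UMI added. With 1 library per group no test was made. Named genes were the 10 highest and 10 lowest by the interval bound nearest 1 with each gene's highest cell left out (seen in at least 10% of cells), the 3 deepest genes of each list, genes of prior interest and the 15 most particular to the members, and the same ranking was repeated without tenocyte-marker barcodes. Other list genes were named after their values were seen, and some genes are not reported here. The calling was run on simulated Poisson counts without variation between cells or libraries, the model that the intervals assume. That run therefore does not cover such variation. Gene positions came from GENCODE M21 (GRCm38) and promoters from RefSeq (GRCm38.p6). Python 3.11.15, numpy 2.4.6, scipy 1.17.1 and pandas 2.3.3 were used.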

Additional observations from a re-analysis of the deposited data

Results flagged for a closer look

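In 16 genes the Pax7/Myf5 cells of the bulk libraries (19 vehicle, 12 LNP-CRISPR) were called on the opposite side from those of the kit libraries. These are 16 of the 61 named genes called in the kit cells, many of which were named for their kit ratio or after their values were seen. Over all 785 genes called in the kit cells 68 (8.66%) were called on the opposite side in bulk and 33 (4.2%) on the same side. The difference was not tested, and each library gives 1 value. Lower in the kit and higher in the bulk LNP-CRISPR cells were 7 immediate early genes, with bulk ratios of 4.48 for Fos, 4.45 for Fosb, 2.85 for Klf2, 2.42 for Btg2, 2.07 for Egr1, 1.86 for Atf3 and 1.74 for Jun, and 3 heat shock genes, with 3.87 for Dnajb1, 2.32 for Hspa1a and 2.14 for Hspa1b. Ckm had a bulk ratio of 11.6 on 4 and 18 UMIs, 17 of the latter in 1 cell, and Rhoh of 5.16 on 3 and 6 UMIs. Single cells held 111 of 133 LNP-CRISPR UMIs of Hspa1a and 105 of 115 of Hspa1b. Higher in the kit and lower in the bulk LNP-CRISPR cells were Ccnd1, at a bulk ratio of 0.62, Ncl at 0.60, Timp1 at 0.31 and Il6 at 0.20. In Il6 all 39 bulk vehicle UMIs came from 1 cell, and in Timp1 163 of 275 did.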

How the results depend on the processing

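No paired analysis was possible because each group holds 1 library. Of 1408 alternative ratios for 129 named genes, 1079 stayed within the counting interval of the main value over all members, 321 moved outside it and 8 changed side of 1. Of 222 list medians 218 stayed within the typical gene's interval. The main counts over all members were 387 higher and 403 lower of 9943 genes, and fewer genes reached the minimum in the alternatives below. The lower count was 252 of 7413 genes and the identity median -0.0504 without members holding more other-type than own-marker UMIs (117 vehicle and 91 LNP-CRISPR cells left). That filter itself keeps cells rich in the 4 markers, and there Ccnd1 had a ratio of 1.11. Thinning to 2000 UMIs gave 188 higher and 106 lower of 4043 genes, and a minimum of 100 UMIs gave 210 lower of 6865. Changes of side were Lox (0.872 without other-type members, 0.66 without tenocyte-marker barcodes and 0.662 with Pax7 and Myf5 alone as markers), Scube2 (0 in the last pair), Casq1 (1.01), Mfap2 (0.893) and Myog (0.787) when thinned, and the matrix median (-0.13, -0.0443 with 0 cycling UMIs, -0.0626 with Pax7 and Myf5 alone). The Cas9 level was 246 CPM with cells weighted equally, 164 without the highest cell, 158 at 4 or more marker UMIs, 93.0 without other-type members and 83.2 without tenocyte-marker barcodes. The member share was 20.2% and 13.8% with at least 500 genes and at most 10% mitochondrial UMIs, 13.3% and 9.28% with Pax7 and Myf5 alone, and 18.8% in the vehicle library when thinned. Apart from these the cause was not tested. Over all alternatives run the NF-kB median ranged from 0.59 to 0.76, the ribosome median from 0.34 to 0.55 and the immediate early median from -0.39 to -0.23. Genes under about 20 UMIs in a library are limited by counting.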
